A study of Mus musculus with 4 samples.

Results

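Keratins are the proteins of the intermediate filaments of epithelial cells. Each filament is built from pairs of a type I and a type II keratin, so that neither type polymerises alone. Simple epithelia such as the lining of the gut use Krt8 as their main type II keratin, with Krt18, Krt19 and Krt20 as type I partners, and stratified squamous epithelia use Krt5 with Krt14 in the basal layer and Krt13 in the layers above it in moist mucosa. The filaments are anchored to desmosomes and give the cell sheet its mechanical strength, and mice without Krt8 are known to develop colitis. The 8 keratins described here were chosen by name from the whole table of 22422 genes. They are the simple-epithelial keratins Krt8, Krt18 and Krt19, the type I keratins Krt20 and Krt23, and the squamous keratins Krt5, Krt13 and Krt14. All 8 were measured, and all 8 passed the filter on low values.

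RNA came from the distal colon of female mice aged 6 weeks that had received 2% dextran sulfate sodium (DSS), which injures the colonic epithelium, for 5 days. The 2 Elf4fl/fl-Villin-Cre libraries came from mice in which Cre, driven by the villin promoter, removes loxP-flanked Elf4 in intestinal epithelial cells, while other cells of the tissue keep the gene. The 2 wild-type libraries came from mice treated alike, whose alleles at the Cre and Elf4 loci the labels do not describe further. The strain is C57BL/6 in the study's design text, but the labels of the Elf4fl/fl-Villin-Cre samples read C57BL/8. All mice had received DSS, so its own effect was not measured. The values are normalised reads, that is, the reads of each gene after division by a factor for its library, with no correction for gene length. The libraries held between 15885028 and 16425954 reads. Elf4 stood at 897 and 758 normalised reads in Elf4fl/fl-Villin-Cre colon, against 1588 and 1938 in wild-type colon.

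Both libraries with replicate number 2 held more squamous RNA than the library with number 1 of the same genotype. Of 27 measured genes on a list of squamous epithelium markers, 25 (92.6%) were higher in replicate 2 than in replicate 1 in both genotypes, against 28.5% of all 22050 genes tested. The direction was not particular to squamous genes, since 12 of 15 general epithelial markers (80%) and 7 of the 8 members (87.5%) shared it. Among the members the ratio of replicate 2 to replicate 1 was largest for Krt5, Krt13 and Krt14. These 3 are therefore given with and without these libraries. General epithelial markers marked every library. Epcam, the epithelial adhesion molecule, stood at 14044 and 17162 normalised reads in Elf4fl/fl-Villin-Cre colon, against 35252 and 41558 in wild-type colon. Trp63, the transcription factor that defines squamous basal cells, stood at 3.26 and 8.36 in Elf4fl/fl-Villin-Cre colon, against 1.03 and 27.4 in wild-type colon.

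Most of the genes lie in 2 clusters of the mouse genome (mm10). The type II keratins Krt5 (chromosome 15, 101707070 to 101712898) and Krt8 (chromosome 15, 101996698 to 102004482) are followed by Krt18 (chromosome 15, 102028180 to 102032027), the type I keratin that lies beside its type II partner, 23.7 kb from it. The other type I members lie on chromosome 11. Krt20 (99428403 to 99438150) and Krt23 (99477974 to 99493137) are 39.8 kb apart. Krt19 (100140810 to 100148665) lies between Krt13 (100117327 to 100121566) and Krt14 (100203162 to 100207548). Krt18 is on the plus strand and the other members are on the minus strand.

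Elf4 belongs to the ETS family, whose members bind DNA around the letters GGAA. The stretches before the start of Krt8, Krt18 and Krt20, which were lower in Elf4fl/fl-Villin-Cre colon, and of Krt23, which did not pass the test, are shown to compare where these letters stand. They come from RefSeq (GRCm38.p6), run 5′ to 3′ on the strand of the gene, and end before the first transcribed base of the annotation. Capitals mark GGAA, or TTCC where the match is on the other strand.
Krt8, chr15:102004483-102004592, minus strand: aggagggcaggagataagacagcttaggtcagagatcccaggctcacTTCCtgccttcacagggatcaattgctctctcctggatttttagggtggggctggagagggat
Krt18, chr15:102027966-102028179, plus strand: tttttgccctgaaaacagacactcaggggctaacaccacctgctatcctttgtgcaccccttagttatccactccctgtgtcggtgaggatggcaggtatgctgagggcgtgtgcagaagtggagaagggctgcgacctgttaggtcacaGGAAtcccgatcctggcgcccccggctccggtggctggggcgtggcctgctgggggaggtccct
Krt20, chr11:99438154-99438403, minus strand: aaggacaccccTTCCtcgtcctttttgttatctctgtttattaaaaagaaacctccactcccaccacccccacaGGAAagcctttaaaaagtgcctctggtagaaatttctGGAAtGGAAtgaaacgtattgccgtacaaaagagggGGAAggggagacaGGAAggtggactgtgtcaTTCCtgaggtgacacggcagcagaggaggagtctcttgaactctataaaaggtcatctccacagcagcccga
Krt23, chr11:99493138-99493370, minus strand: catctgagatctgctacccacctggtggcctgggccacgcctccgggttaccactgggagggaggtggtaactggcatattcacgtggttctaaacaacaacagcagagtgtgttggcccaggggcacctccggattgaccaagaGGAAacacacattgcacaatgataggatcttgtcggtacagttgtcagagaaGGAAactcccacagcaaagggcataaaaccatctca

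RefSeq windows of 300 bases, 250 before and 50 after the RefSeq start, were used for 6 of the 8 members. The stretches shown stop at the start in the annotation instead, so they differ in length, at 110, 214, 250 and 233 bases. Most of the Krt8 window lies inside the annotated gene. On either strand, GGAA was found 3 times in the whole window of Krt8, 2 times in that of Krt18, 7 times in that of Krt20 and 2 times in that of Krt23. The stretches shown hold 1, 1, 7 and 2 of these matches. The windows of Krt5 and Krt13 held it 2 and 4 times. Over 32851 mouse windows of this length, 96.0% held GGAA at least once, with a median of 3 matches, and 28.6% held 5 or more. The longer form AGGAAG, which overlaps GGAA, was found once in Krt8, in 2 places in Krt20 and not in the other 4 windows, and 35.4% of all windows held it. The form CGGAAG was in none of the 6 windows, and 16.9% of all windows held it. These are matches of letters, and binding was not measured.

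Krt8, Krt18, Krt19 and Krt20 were lower in Elf4fl/fl-Villin-Cre colon than in wild-type colon, by 2.05- to 4.36-fold. Krt23, Krt5, Krt13 and Krt14 did not pass the test. Of the 8 keratins, 4 fell and 0 rose (limma on log2(value + 1), Benjamini-Hochberg adjusted p under 0.05 over all genes), where the same rule called 8.6% of all genes lower and 6.86% higher. The split of calls over all genes depended on the scaling. With division by library totals limma called 4114 genes higher and 1194 lower, against 1512 higher and 1897 lower with the deposited scaling, and 4 members lower and 0 higher under both. At an unadjusted p under 0.05 the count of higher members was also 0, in limma and in edgeR. The genotypes lay apart, with no overlap, for 4 members, all of them lower in Elf4fl/fl-Villin-Cre colon, where 27.2% of all genes lay apart as lower and 35.0% as higher. The median log2 fold change of the 8 was -1.71, and that of all genes tested was 0.11. In whole tissue, fewer epithelial cells and less keratin RNA per cell cannot be told apart.

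**Figure D1:**
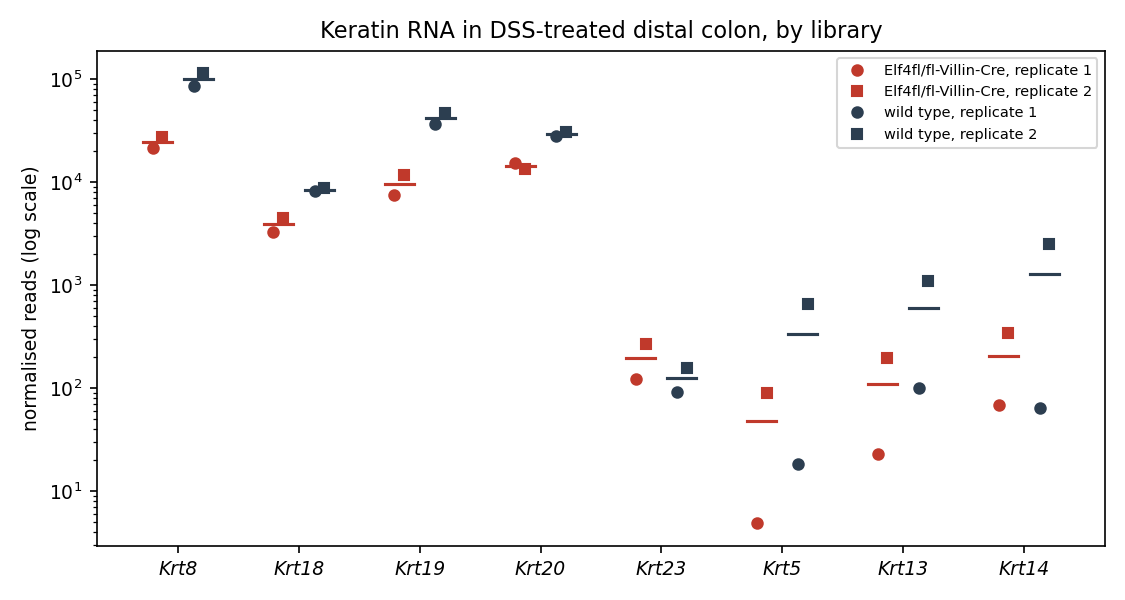
Normalised reads of the 8 keratins on a log axis, with Elf4fl/fl-Villin-Cre libraries in red to the left of wild-type libraries in dark blue, circles for replicate 1, squares for replicate 2 and a bar at the mean. For Krt8, Krt18, Krt19 and Krt20 the red and blue points are apart, while for Krt23, Krt5, Krt13 and Krt14 they overlap.

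Krt8, the type II keratin of simple epithelia, was the most abundant member. It stood at 21683 and 27499.8 normalised reads in Elf4fl/fl-Villin-Cre colon, against 86348 and 114657 in wild-type colon. Both Elf4fl/fl-Villin-Cre libraries lay far below both wild-type libraries. By value, Krt8 ranked 33rd and 31st among all genes in Elf4fl/fl-Villin-Cre colon, against 8th and 5th in wild-type colon. The mean was 24592 ± 4113 in Elf4fl/fl-Villin-Cre colon, 4.09-fold lower than the 100503 ± 20018 in wild-type colon (SD, n = 2 each). On the log2 scale Krt8 fell by 2.03 ± 0.27 (SE; limma adjusted p = 0.0118).

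Krt18, the type I partner of Krt8, was also lower. It stood at 3282 and 4510.0 normalised reads in Elf4fl/fl-Villin-Cre colon, against 8237 and 8730.0 in wild-type colon. The groups did not overlap, and the wild-type libraries were close together. Krt18 fell by 1.14 ± 0.19 on the log2 scale (SE; limma adjusted p = 0.0173), with means of 3896 ± 868 in Elf4fl/fl-Villin-Cre and 8484 ± 348 in wild-type colon (SD, n = 2 each). The counts of both genes carry an uncertainty from near-identical copies in the genome. The annotation names 1 copy in the table, the processed pseudogene Krt8-ps, which held 9 and 16 reads in Elf4fl/fl-Villin-Cre libraries, against 52 and 70 in wild-type libraries.

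Krt19, the smallest keratin and a type I partner in crypt and surface cells, fell by 2.15 ± 0.28 on the log2 scale (SE; limma adjusted p = 0.0111). It stood at 7484 and 11803 normalised reads in Elf4fl/fl-Villin-Cre colon, against 36623 and 47399 in wild-type colon. Both Elf4fl/fl-Villin-Cre values were far below both wild-type values, and the difference in means was 4.36-fold. Krt19 lies between 2 squamous members on chromosome 11. Like them it was higher in replicate 2 of both genotypes, but by smaller ratios. Krt19 was 1.58 times as high in replicate 2 as in replicate 1 of Elf4fl/fl-Villin-Cre, and 1.29 times as high in wild type. For Krt13 the same ratios were 8.58 in Elf4fl/fl-Villin-Cre and 11.0 in wild type, and for Krt14 they were 4.92 and 38.9.

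Krt20, the keratin of mature surface colonocytes and goblet cells, had the smallest decrease of the 4. It stood at 15288 and 13349 normalised reads in Elf4fl/fl-Villin-Cre colon, against 27964 and 30694 in wild-type colon. The groups did not overlap, and within each genotype the libraries were close. The mean was 14319 ± 1371 in Elf4fl/fl-Villin-Cre colon, 2.05-fold lower than the 29329 ± 1930 in wild-type colon (SD, n = 2 each). On the log2 scale Krt20 fell by 1.04 ± 0.19 (SE; limma adjusted p = 0.0209). Markers of absorptive colonocytes were lower in the same libraries, and those of goblet cells less evenly so. Of 5 absorptive colonocyte markers, 3 fell and 0 rose (limma adjusted p under 0.05; median log2 fold change -2.03), and their summed level was 10482 and 15978 normalised reads in Elf4fl/fl-Villin-Cre colon, against 37883 and 50597 in wild-type colon. Of 5 goblet cell markers, 1 fell and 0 rose (median -0.87), and their summed level was 226291 and 406048 in Elf4fl/fl-Villin-Cre colon, against 916745 and 756735 in wild-type colon. Clca1 was the largest part of the goblet cell sum in every library. It was not called in limma (adjusted p = 0.0555), but did not overlap between genotypes and was called lower in edgeR (adjusted p = 0.0385). Muc2, Zg16 and Tff3 were called in neither limma nor edgeR. Tff3 overlapped between genotypes, at 20625 and 34044 in Elf4fl/fl-Villin-Cre colon, against 38252.5 and 32159 in wild-type colon. None of the 10 markers was at 0 in any library, and their part in the value of Krt20 was not tested.

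The 4 decreases were also called by edgeR on whole reads, with adjusted p of 0.0086 for Krt8, 0.0127 for Krt18, 0.00844 for Krt19 and 0.0175 for Krt20, where edgeR called 13.5% of genes lower and 9.88% higher. The limma calls do not survive the loss of a library, since without any 1 of the 4 libraries limma called 0 of all genes in either direction. In edgeR without wild type replicate 2, Krt18 and Krt20 lost their calls (adjusted p = 0.0578 and 0.0729), and with quantile scaling Krt20 fell short in limma, at a log2 fold change of -0.46 (adjusted p = 0.169).

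Krt23, a type I keratin of digestive epithelia, did not pass the test. It stood at 123 and 268 normalised reads in Elf4fl/fl-Villin-Cre colon, against 92.6 and 156 in wild-type colon. The groups overlapped, since the lower Elf4fl/fl-Villin-Cre library lay below the higher wild-type library. The log2 fold change was 0.59 ± 0.42 (SE; limma adjusted p = 0.388), and leaving out Elf4fl/fl-Villin-Cre replicate 2 gave -0.054 in edgeR. Krt23 was the only member with a positive value over all 4 libraries, in contrast to Krt20, its nearest neighbour among the members on the chromosome.

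**Figure D2:**
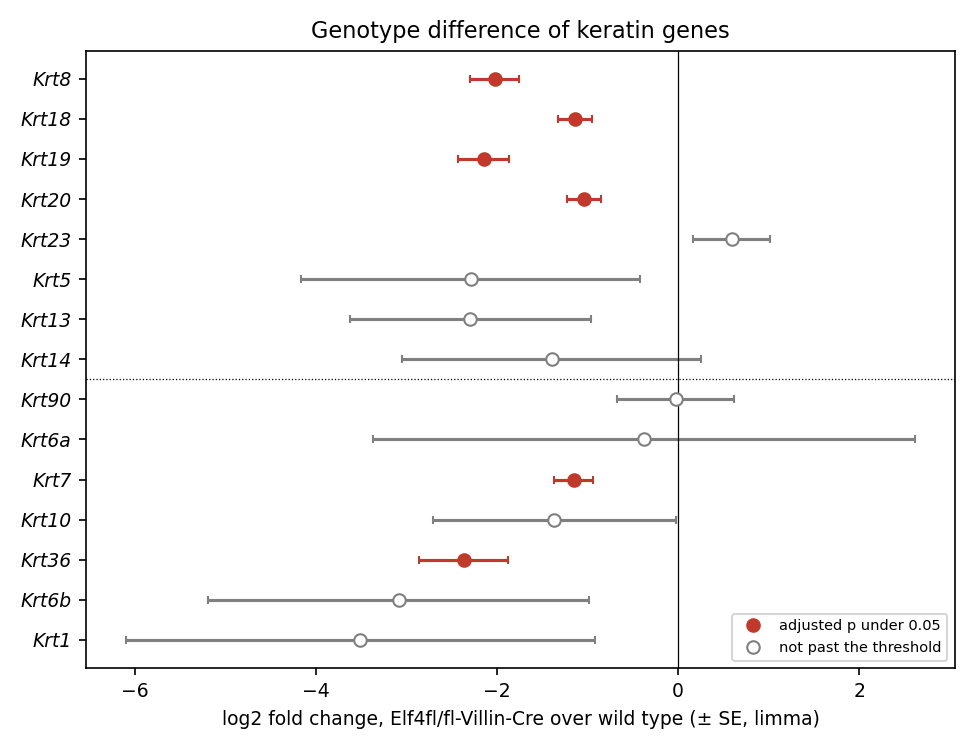
Log2 fold change, Elf4fl/fl-Villin-Cre over wild type, with its SE, for the 8 keratins above the dotted line and for 7 other keratin genes below it. Filled red points passed the adjusted threshold (Krt8, Krt18, Krt19, Krt20, Krt7 and Krt36), and the squamous keratins have wide bars.

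The keratins that fell did so to unequal degrees, and the make-up of the keratin RNA differed between the libraries of the genotypes. The shares are described by library and were not tested. Levels of different genes are compared here as normalised reads per kilobase of exon. Krt8 made up 43.5% and 45.3% of the summed level of the 8 members in Elf4fl/fl-Villin-Cre colon, against 52.3% and 53.9% in wild-type colon. Krt20 made up 31.2% and 22.4% in Elf4fl/fl-Villin-Cre colon, against 17.2% and 14.7% in wild-type colon. Krt18 made up 8.97% and 10.1% in Elf4fl/fl-Villin-Cre colon, against 6.80% and 5.60% in wild-type colon. Krt19 made up 15.8% and 20.5% in Elf4fl/fl-Villin-Cre colon, against 23.4% and 23.5% in wild-type colon. For all 4 genes the genotypes did not overlap, with Krt20 and Krt18 higher in share and Krt8 and Krt19 lower in share in Elf4fl/fl-Villin-Cre colon. Krt23 was also higher in share without overlap, at 0.309% and 0.552% in Elf4fl/fl-Villin-Cre colon, against 0.0702% and 0.0918% in wild-type colon. The shares of a library have a fixed sum, so they do not move independently. The 3 squamous members together made up 0.213% and 1.10% in Elf4fl/fl-Villin-Cre colon, against 0.119% and 2.16% in wild-type colon. All 8 together took 0.367% and 0.423% of the reads of the Elf4fl/fl-Villin-Cre libraries, against 0.961% and 1.23% of those of the wild-type libraries.

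**Figure D3:**
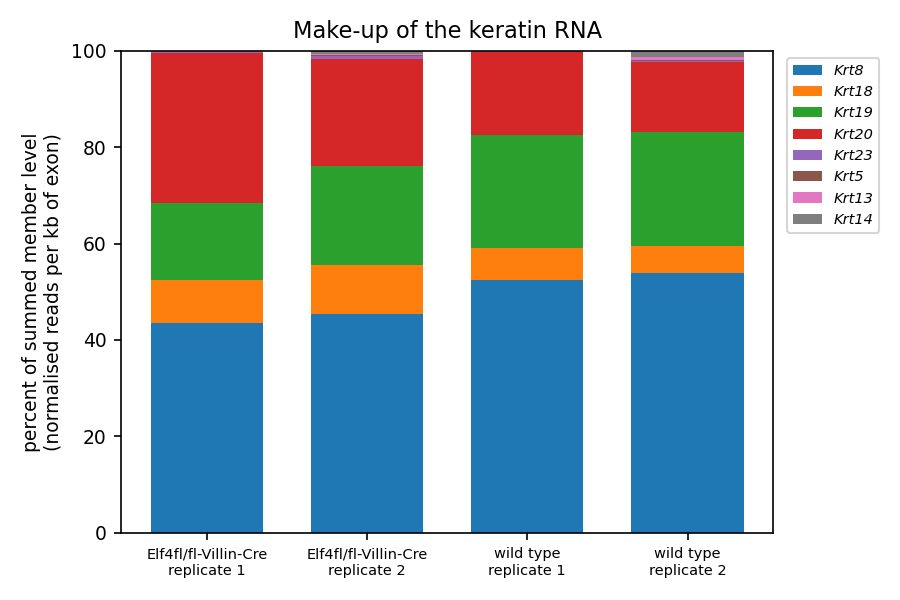
Percent of the summed level of the 8 members (normalised reads per kilobase of exon) held by each, with 1 bar per library and Elf4fl/fl-Villin-Cre at the left. The band of Krt20 is wider in both Elf4fl/fl-Villin-Cre libraries (31.2% and 22.4%) than in both wild-type libraries (17.2% and 14.7%).

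The order of the levels changed in its middle. In Elf4fl/fl-Villin-Cre colon, Krt8 averaged 12559.5 ± 2101 normalised reads per kilobase, followed by Krt20 at 7431 ± 711, Krt19 at 5199 ± 1647 and Krt18 at 2711 ± 604 (SD, n = 2 each). In wild-type colon Krt8 averaged 51329 ± 10224, followed by Krt19 at 22647 ± 4108, Krt20 at 15220 ± 1002 and Krt18 at 5904 ± 243 (SD, n = 2 each). Krt20 lay above Krt19 in both Elf4fl/fl-Villin-Cre libraries and below it in both wild-type libraries. The other 4 members were far lower in every library. In Elf4fl/fl-Villin-Cre colon Krt23 averaged 125 ± 65.3, Krt14 116 ± 109, Krt13 60.0 ± 67.1 and Krt5 21.7 ± 27.5 (SD, n = 2 each), and in wild-type colon Krt14 averaged 736 ± 989, Krt13 331 ± 390, Krt5 154 ± 206 and Krt23 79.4 ± 28.6 (SD, n = 2 each). Neighbours among these 4 did not differ beyond their spread.

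Ratios within a library do not depend on its scaling factor. Per kilobase, Krt18 stood at 0.206 and 0.223 of Krt8 in Elf4fl/fl-Villin-Cre colon, against 0.130 and 0.104 in wild-type colon. Krt20 stood at 0.716 and 0.493 of Krt8 in Elf4fl/fl-Villin-Cre colon, against 0.329 and 0.272 in wild-type colon. Both ratios were higher in each Elf4fl/fl-Villin-Cre library than in each wild-type library, by 1.85-fold for Krt18 and 1.99-fold for Krt20 (means of log2 ratios). Krt19 held its ratio to Krt8 within the spread, at 0.364 and 0.453 in Elf4fl/fl-Villin-Cre colon, against 0.448 and 0.436 in wild-type colon. The ratio of Krt20 to Krt18 also overlapped between genotypes, at 3.47 and 2.21 in Elf4fl/fl-Villin-Cre colon, against 2.53 and 2.62 in wild-type colon. By the size of the decrease, Krt8 lay with Krt19 and Krt18 with Krt20. Over all members, type I over type II stood at 1.30 and 1.20 in Elf4fl/fl-Villin-Cre colon, against 0.910 and 0.844 in wild-type colon. With 2 libraries against 2, a two-sided exact permutation test cannot go below p = 0.333, the value it gave for each of the ratios whose groups did not overlap, and 7 ratios were examined.

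**Figure D4:**
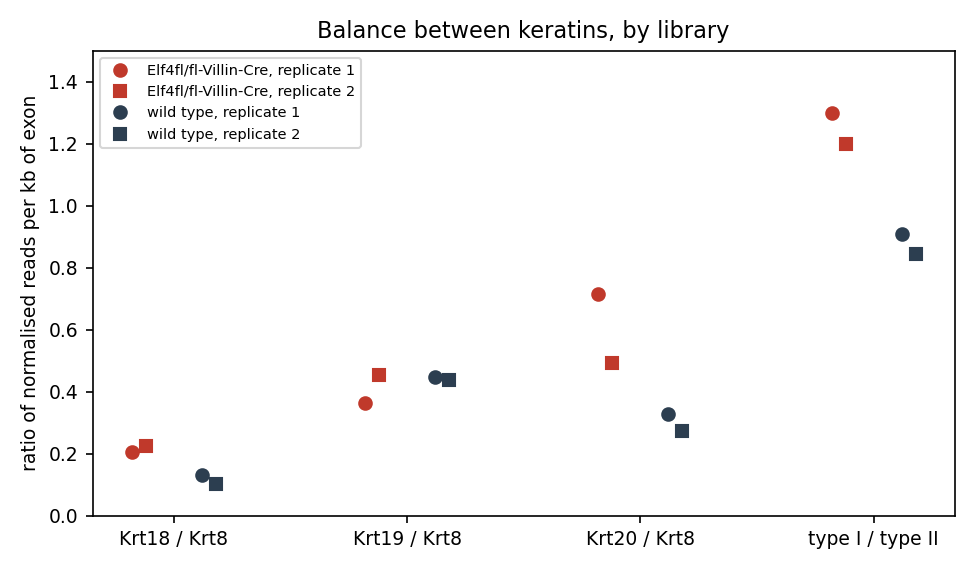
Ratio of normalised reads per kilobase of exon between keratins, on a linear axis from 0, for each library, with Elf4fl/fl-Villin-Cre in red at the left of wild type in dark blue. The ratios of Krt18 and Krt20 to Krt8 and of type I to type II members are higher in both Elf4fl/fl-Villin-Cre libraries, and that of Krt19 to Krt8 overlaps.

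The squamous keratins varied widely between libraries of 1 genotype. Krt5, the type II keratin of squamous basal cells, stood at 4.89 and 90.3 normalised reads in Elf4fl/fl-Villin-Cre colon, against 18.5 and 660 in wild-type colon. Krt14, its type I partner, stood at 69.2 and 340 in Elf4fl/fl-Villin-Cre colon, against 64.8 and 2524 in wild-type colon. Krt13, of the layers above the basal one, stood at 22.8 and 196 in Elf4fl/fl-Villin-Cre colon, against 101 and 1104 in wild-type colon. For all 3 genes replicate 2 was the higher library in both genotypes, and the genotypes overlapped. The ratio of replicate 2 to replicate 1 was 18.5 in Elf4fl/fl-Villin-Cre and 35.6 in wild type for Krt5. For Krt13 it was 8.58 in Elf4fl/fl-Villin-Cre and 11.0 in wild type.

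None of the 3 squamous members passed the test. The log2 fold change was -2.29 ± 1.87 for Krt5, -2.29 ± 1.33 for Krt13 and -1.40 ± 1.65 for Krt14 (SE; limma adjusted p = 0.443, 0.291 and 0.605). The sizes moved with single libraries. Without wild type replicate 2 limma gave 0.25 for Krt5, -0.57 for Krt13 and 1.23 for Krt14, and edgeR gave 1.32, 0.0798 and 1.62 for Krt5, Krt13 and Krt14. Without Elf4fl/fl-Villin-Cre replicate 1 limma gave -0.31, -0.77 and -0.26 for the same genes. When Elf4fl/fl-Villin-Cre replicate 2 was left out, edgeR called Krt5 and Krt13 lower, at -6.13 and -4.76 (adjusted p = 0.0365 and 0.0181), and without wild type replicate 1 Krt14 was called lower, at -3.68 (adjusted p = 0.0369). Between the 2 libraries with number 1, Elf4fl/fl-Villin-Cre over wild type was 0.264 for Krt5, 0.226 for Krt13 and 1.07 for Krt14, and between those with number 2 it was 0.137, 0.177 and 0.135.

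Wild type replicate 2 was the highest library for 23 of the 27 measured genes on the squamous list. Elf4fl/fl-Villin-Cre replicate 2 stood above wild type replicate 1 for 19 of them. Krt6a, a keratin induced in wounded epidermis, stood at 2.44 and 97.0 normalised reads in Elf4fl/fl-Villin-Cre colon, against 0 and 566 in wild-type colon. Krt1 and Krt10, the pair of cornifying epidermis, reached 799 and 583 in wild type replicate 2. In the other 3 libraries Krt1 stood between 0 and 24.2 and Krt10 between 26.8 and 79.4. Of the squamous list, 1 gene rose and 5 fell of 27 (limma adjusted p under 0.05; median log2 fold change -0.82). With edgeR, 0 of the list were called in either direction without wild type replicate 2, 10 fell and 0 rose without wild type replicate 1, and 9 fell without Elf4fl/fl-Villin-Cre replicate 2. Those with the smallest p, Sfn (14-3-3 sigma), Serpinb5 (maspin) and Anxa8 (an annexin), had log2 fold changes of -1.38, -1.60 and -1.21 (limma adjusted p = 0.0171, 0.0176 and 0.019). They are also made outside squamous epithelium and were read in every library. For Serpinb5 the ratio of replicate 2 to replicate 1 was 1.59 in Elf4fl/fl-Villin-Cre and 1.41 in wild type, far from that of Krt5. The summed level of the list was 4785 and 7234 normalised reads in Elf4fl/fl-Villin-Cre colon, against 11422 and 18410.4 in wild-type colon. Most of this sum came from Anxa8, Sfn and Serpinb5 in every library, so it does not describe the genes restricted to squamous epithelium. Of the defining markers, Sprr3 was at 0 in replicate 1 of both genotypes and Krtdap in that of Elf4fl/fl-Villin-Cre. Sbsn, the suprabasin gene, rose by 1.36 (limma adjusted p = 0.021). Whether the dissected piece reached squamous epithelium at the anal edge was not tested.

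**Figure D5:**
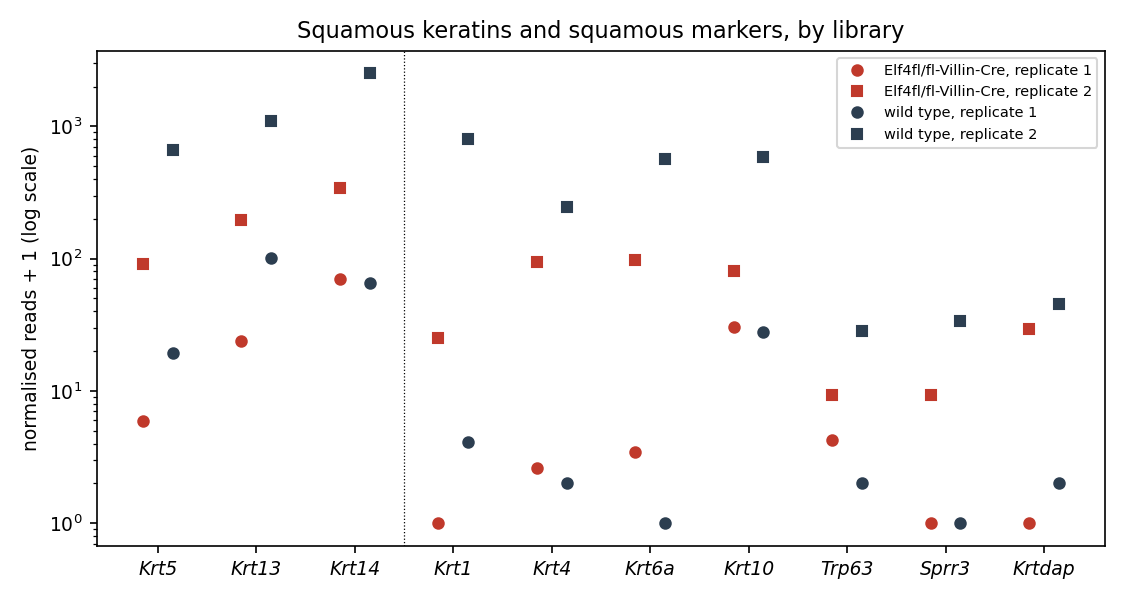
Normalised reads plus 1 on a log axis for the 3 squamous members at the left of the dotted line and 7 squamous marker genes at its right, with Elf4fl/fl-Villin-Cre in red at the left of wild type in dark blue, circles for replicate 1 and squares for replicate 2. For each gene the square lies above the circle in both genotypes.

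Beyond the 8 members, 20 other keratin genes were measured, of which 2 fell and 0 rose (limma adjusted p under 0.05; median log2 fold change -0.54). At an unadjusted p under 0.05, 4 were lower and 1 was higher, and edgeR called 3 of them lower and 0 higher. The counts of 2 in limma and 3 in edgeR are near the shares of all genes called lower, 8.6% and 13.5%. Krt7, a type II keratin of simple and ductal epithelium, was the most abundant of them. It stood at 1130.4 and 1619.6 normalised reads in Elf4fl/fl-Villin-Cre colon, against 2689 and 3377 in wild-type colon, and fell by 1.15 ± 0.21 on the log2 scale (SE; limma adjusted p = 0.0216). Krt36, a type I keratin of the hair type, stood at 47.2 and 106 in Elf4fl/fl-Villin-Cre colon, against 251 and 547 in wild-type colon, and fell by 2.37 ± 0.49 (SE; limma adjusted p = 0.0286). Its call was lost in limma with no filter on low values, which left 1 gene, and edgeR without wild type replicate 2 called 0 of the 20. With Elf4fl/fl-Villin-Cre replicate 2 left out edgeR called 7 of them lower, and with wild type replicate 1 left out 6. Dividing by library totals left 2 lower and made 1 higher. The other keratins with a mean of at least 100 normalised reads, Krt1, Krt6a, Krt6b, Krt10 and Krt90, had log2 fold changes between -3.51 and -0.025 (limma adjusted p from 0.365 to 0.983), and all of them overlapped between genotypes. Paralogs such as Krt6a and Krt6b, or Krt14, Krt16 and Krt17, are alike enough that their reads may have been split or dropped, so single values of these genes are uncertain. Of the 20 genes, Krt1, Krt4, Krt6a, Krt6b, Krt10, Krt15, Krt16 and Krt17 are also on the squamous list.

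Most genes that anchor keratin filaments were lower in the same libraries, and 2 of 16 had positive log2 fold changes. Over all genes, limma called 8.6% lower and 6.86% higher. Of 16 measured genes of desmosomes and plakins, 9 fell and 0 rose (limma adjusted p under 0.05; median log2 fold change -1.32; 0 higher at an unadjusted p under 0.05, and 0 higher in edgeR). Evpl (envoplakin) had a log2 fold change of -2.19, Pkp3 (plakophilin 3) of -1.41, Dsp (desmoplakin, which ties keratin to the desmosome) of -1.87 and Dsc2 (a desmosomal cadherin) of -1.69 (limma adjusted p = 0.00942, 0.00942, 0.0115 and 0.0128). Of 12 measured keratin partners and regulators, a list that shares Dsp, Pkp1 and Plec with the previous one, 8 fell and 0 rose in limma (median -0.98; 2 higher at an unadjusted p under 0.05, and 1 higher in edgeR). The desmosome and plakin list shares Pkp1, Dsg1a, Dsg3 and Dsc3 with the squamous list. The partner list also shares Epcam with the general epithelial list, and Sfn and Pkp1 with the squamous list. With division by library totals 6 of its genes fell and 2 rose, and without wild type replicate 2 edgeR called 3 lower. Fam83h, which recruits casein kinase to keratin filaments, had a log2 fold change of -1.44 and Lima1, an actin-binding protein, of -1.25 (limma adjusted p = 0.0102 and 0.016).

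General epithelial markers were lower as well. Of 15, 13 fell and 0 rose (limma adjusted p under 0.05; median log2 fold change -1.39; 0 higher at an unadjusted p under 0.05, and 0 higher in edgeR). The protease gene St14 (matriptase) had a log2 fold change of -1.20, Vil1 (villin) of -1.58, Cldn7 (claudin 7) of -1.29 and the ETS factor gene Elf3 of -1.45 (limma adjusted p = 0.00942, 0.00942, 0.0117 and 0.0118). Krt19 had a more negative log2 fold change than all 15 of these genes, and Krt8 than 14. Krt18 had a less negative value than 12 of the 15, and Krt20 than 13. The difference of each keratin from the list was not tested, and the list is no measure of cell number.

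Markers of other cells also moved with genotype. Of 8 mesothelial markers, from the serosal lining that also makes Krt8, Krt18 and Krt19, 6 rose and 0 fell (median log2 fold change 1.20; 0 lower at an unadjusted p under 0.05, and 0 lower in edgeR). The smallest p-values were those of Msln, Rspo1 and Wt1, with log2 fold changes of 1.18, 1.22 and 1.84 (limma adjusted p = 0.0136, 0.0177 and 0.0178). Without either wild-type library edgeR called 3 of the 8 higher. Their summed level was 2214 and 3296 normalised reads in Elf4fl/fl-Villin-Cre colon, against 1251 and 1261 in wild-type colon, and none of the defining markers was at 0 in any library. The summed level of 4 leukocyte markers was 4021 and 2887 in Elf4fl/fl-Villin-Cre colon, against 1455 and 1147 in wild-type colon, and 3 of them rose. Erythroid markers, 5 genes of haemoglobin and its synthesis, summed to 2419 and 2807 in Elf4fl/fl-Villin-Cre colon, against 244 and 693 in wild-type colon, and 4 of them rose (median log2 fold change 2.66). Smooth muscle markers summed to 51299 and 76675 in Elf4fl/fl-Villin-Cre colon, against 111874 and 83569 in wild-type colon, and 1 of 4, Des, fell. Myh11, the largest part of this sum, overlapped between genotypes, at 22376 and 31807 in Elf4fl/fl-Villin-Cre colon, against 46152 and 30643 in wild-type colon. Acta2 also overlapped, while Des and Actg2 did not. None of these markers was at 0 in any library. The part of these cells in the keratin values was not tested.

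The genes whose pattern over the 4 libraries was most like that of the 4 keratins that fell, and of Krt13 and Krt14, were found by the root mean square difference of log2 values centred on each gene's mean, among 14633 genes with a mean of at least 10. With 4 libraries this is a description. For Krt8 they were Dhcr7 and Ybx2 (0.04 and 0.05 on the log2 scale) and Rnf186 (0.06). For Krt18 they were Mlx, Dera and Grtp1 (0.02 each), and for Krt20 Fam98c, Ptcd2 and Txn1 (0.02, 0.03 and 0.04). For Krt19 they included Ckmt1 and Pdzk1ip1 (0.04 and 0.05). For Krt13 they were Calm4, Spink5 and Lor (0.23, 0.37 and 0.46). For Krt14 they were Sprr3, Krt10 and Serpinb3a (0.42, 0.44 and 0.47). The differences for Krt13 and Krt14 were larger than those for the 4 keratins that fell. Calm4, Sprr3 and Serpinb3a stood between 0 and 2.06 normalised reads in replicate 1 of both genotypes, so their patterns rest on few reads. Lor (loricrin), Sprr3 and Krt10 are on the squamous list.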

How the data were processed

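RNA was extracted with Trizol, per the labels' protocols, and sequenced as standard Illumina libraries. The deposited table gives 1 normalised signal per gene and library. Every value is a whole multiple of the smallest value above 0 of its library (100% of values, tolerance 0.01), so whole reads were recovered by division. One read was worth 0.814 and 0.836 in Elf4fl/fl-Villin-Cre libraries, and 1.03 and 1.05 in wild-type libraries. The submitters' processing notes name the build mm10. The sources used here do not give the aligner, counter or strandedness. Symbols, positions and exon lengths came from GENCODE mouse release 21 (22376 of 22422 identifiers matched).

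limma (3.58.1, R 4.3.3) was fitted to log2(value + 1) of all 4 libraries, with genotype as its term, a trended prior variance and a minimum mean value of 1. P-values were adjusted by Benjamini-Hochberg over 22050 genes at 0.05. The fit had 2 residual and 4.06 prior degrees of freedom. edgeR (4.0.16, quasi-likelihood) and DESeq2 (1.42.0) on the recovered reads were alternatives (edgeR called 1713 genes higher and 2341 lower of 17337), beside other pseudocounts, filters, scalings and the loss of each library. The limma and edgeR fits were tested on simulated counts. The scale understates differences of genes with few reads. Nothing in the labels says that replicates were separate animals, so p-values reflect only the spread between these libraries, part of which may be technical.

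The members and gene lists were chosen with earlier results of these data known. Named genes were the 8 members, Elf4, other keratins past the threshold or with a mean of at least 100, and up to 4 genes per list by smallest p. One gene that the rule names is not reported here.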

Additional observations from a re-analysis of the deposited data

How the results depend on the processing

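The direction of Krt8, Krt18, Krt19 and Krt20 was the same in all 21 alternatives. Their calls were kept in 16, 15, 16 and 14 of them, and the log2 fold changes ran from -2.27 to -1.43, -1.41 to -0.77, -2.53 to -1.65 and -1.18 to -0.46. Limma without a variance trend called 0 members, as it called 0 of all genes (values -2.03, -1.14, -2.15 and -1.04). Without 1 library, limma called 0 members in each of its 4 fits, and edgeR called 2 to 6. The lone library of a genotype is assumed there to vary like the pair of the other. In these fits Krt8 ran from -2.27 to -1.82, Krt18 from -1.41 to -0.91, Krt19 from -2.53 to -1.82, Krt20 from -1.18 to -0.94, Krt23 from -0.054 to 1.15, Krt5 from -6.13 to 1.32, Krt13 from -4.76 to 0.0798 and Krt14 from -4.27 to 1.62. The cause of the reversals of Krt23, Krt5, Krt13 and Krt14 was not tested. With quantile scaling Krt20 lost its call, at -0.46 (adjusted p = 0.169). Dividing by library totals put the median of all genes at 0.41, against 0.11 without it, and all 4 calls remained, and edgeR without TMM called 4717 genes higher and 1326 lower. Replicate numbers were shared by the genotypes, but nothing says that they pair the samples. The deviations of same-numbered libraries correlated at 0.198. With a replicate block, Krt5 and Krt13 were called lower, at -2.29 each (adjusted p = 0.0073 and 0.00143), and 7 other keratin genes were called lower, against 2 without the block. Without division by exon length the balance and the order of the shares kept their direction. Depth limits the genes with few reads most, such as Krt5 with 6 reads in Elf4fl/fl-Villin-Cre replicate 1.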

Other observations

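Intermediate filament genes other than keratins went both ways. The list holds genes of mesenchymal, muscle, glial and nerve cells and the nuclear lamins, which are made in most cells, epithelium included. Of 13, 3 rose and 3 fell (limma adjusted p under 0.05; median log2 fold change 0.13). With division by library totals 1 fell, and edgeR called 1 lower without Elf4fl/fl-Villin-Cre replicate 1 and 0 lower without wild type replicate 2. Nes (nestin, of glia, endothelium and progenitors) rose by 1.62, Gfap (of enteric glia) by 1.11 and Vim (vimentin, of mesenchymal cells and leukocytes) by 0.92 (limma adjusted p = 0.0119, 0.0132 and 0.0186). Those that fell were the lamin genes Lmnb2 and Lmna and the muscle gene Des, with log2 fold changes of -1.07, -0.81 and -0.93 (limma adjusted p = 0.0201, 0.0452 and 0.0382). Vim stood at 6378 and 6307 normalised reads in Elf4fl/fl-Villin-Cre colon, against 3746 and 2998 in wild-type colon. In the same libraries Krt8 stood at 21683 and 27499.8 in Elf4fl/fl-Villin-Cre colon, against 86348 and 114657 in wild-type colon.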
